A study of Homo sapiens with 6 samples.

Results

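Interferon-stimulated effector genes were examined in MDA-MB-231, an established human breast adenocarcinoma cell line, as 40 genes chosen by name. They were chosen with earlier results of these data known, and all were among the 17100 deposited transcripts. The genes were compared between 3 libraries of cells that received vehicle and 3 libraries of cells treated with guadecitabine (SGI-110), a DNA methyltransferase inhibitor that releases decitabine, at 1 µM for 96 h with another 24 h without drug before harvest. All 6 libraries came from the same cell line, grown in DMEM with serum, and the labels name no added interferon. The study describes the replicates as independent experiments.

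Type I and type III interferons bind receptors at the cell surface and activate the kinases JAK1 and TYK2, which phosphorylate STAT proteins. STAT2 and IRF9 are parts of ISGF3, a transcription factor complex that binds the interferon-stimulated response element (ISRE) in front of its target genes. The proteins of these targets act against viruses at several steps, from sensing and degrading viral RNA to blocking entry, translation and release, and in cancer cells the program is known to switch on when double-stranded RNA of endogenous origin is sensed.

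The library totals lay between 8792127 counts, in guadecitabine replicate 2, and 22277442 counts, in vehicle replicate 3. Vehicle replicate 3 stood apart, with 20 transcripts at 0 reads against 1593 to 2517 in the other libraries. Over 2049 genes with at most 1 read in vehicle replicates 1 and 2 and at most 6 reads over the guadecitabine libraries, it held a median of 7.93 reads per kb of exon. Reads at that rate would make up over 10% of its reads in 9 members: IFI44L, CMPK2, XAF1, RSAD2, EPSTI1, TRIM22, MX2, SAMD9L and USP18. The line's mesenchymal markers VIM, CD44 and EGFR had at least 910 reads in every library, whereas ESR1 and PGR had at most 1 read outside vehicle replicate 3. ERBB2 (552 to 1974 reads) and GATA3 (321 to 766 reads), the other luminal markers, were read throughout and went in opposite directions after guadecitabine (log2 fold change -0.74 and 0.83, adjusted p = 0.00122 and 0.000512, edgeR). Of the fibroblast markers, COL3A1 and DCN had at most 5 reads outside vehicle replicate 3, and PDGFRB had 85 to 425 and was lower (log2 fold change -0.92, adjusted p = 0.00116, edgeR). CD44 and VIM were higher, at 1.18 and 0.33 (adjusted p = 2.66e-05 and 0.0258, edgeR), and EGFR did not pass. Of the haematopoietic markers, CD3E and CLEC4C were not among the transcripts analysed, PTPRC and ITGAX had at most 3 reads outside vehicle replicate 3, and CD14 (91 to 257 reads) and CD68 (2905 to 9024 reads) were read in all libraries. CD68 was higher after guadecitabine (log2 fold change 1.27, standard error 0.0958, edgeR adjusted p = 1.69e-05). The part of these markers in the results was not tested.

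The sequence in front of the members is shown first, since the ISRE is the element through which ISGF3 acts. The deposited start site of each transcript was used, with 250 bases before and 50 bases from the start site on in hg19. The letters GAAANNGAAA, the core of the ISRE, were found on one strand or the other in 21 of the 40 members (52.5%), against 528 of all 17100 transcripts (3.09%). The letters TTCNNNGAA, the palindromic core of the GAS element of interferon-responsive genes, were found in 9 members (22.5%), against 6.73% of all transcripts, and overlapped an ISRE match in BST2, IFI27 and EPSTI1. The members' windows held a median of 6 CpG dinucleotides, with a range of 0 to 41, against a median of 24 over all genes tested. The 6 members that follow were all called higher. They are printed as the 140 bases directly before each start site, 5′ to 3′ on the gene's strand, with every base of an ISRE core match in capitals. ISG15 lies at chr1:948707-948846 on the plus strand, IFIT1 at chr10:91152163-91152302 on the plus strand, IFIT2 at chr10:91061566-91061705 on the plus strand, IFI6 at chr1:27998725-27998864 on the minus strand, HERC5 at chr4:89378128-89378267 on the plus strand and RSAD2 at chr2:7017656-7017795 on the plus strand.
ISG15: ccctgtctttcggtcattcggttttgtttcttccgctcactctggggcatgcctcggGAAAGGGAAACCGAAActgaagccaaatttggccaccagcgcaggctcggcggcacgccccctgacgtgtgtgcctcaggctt
IFIT1: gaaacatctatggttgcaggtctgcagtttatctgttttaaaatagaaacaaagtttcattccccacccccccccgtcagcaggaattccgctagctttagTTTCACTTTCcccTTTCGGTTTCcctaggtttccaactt
IFIT2: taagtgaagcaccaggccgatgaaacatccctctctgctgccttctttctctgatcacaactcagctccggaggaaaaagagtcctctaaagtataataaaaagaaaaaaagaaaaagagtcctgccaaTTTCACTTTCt
IFI6: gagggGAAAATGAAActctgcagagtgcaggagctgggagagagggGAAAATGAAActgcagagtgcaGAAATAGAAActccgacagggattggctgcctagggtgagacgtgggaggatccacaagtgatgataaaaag
HERC5: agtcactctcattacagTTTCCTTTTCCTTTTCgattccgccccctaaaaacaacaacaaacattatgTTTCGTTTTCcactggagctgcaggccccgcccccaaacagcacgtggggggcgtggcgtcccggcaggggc
RSAD2: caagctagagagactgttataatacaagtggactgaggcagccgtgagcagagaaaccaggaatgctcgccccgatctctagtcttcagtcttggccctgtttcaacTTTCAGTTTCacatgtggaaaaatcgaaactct

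Next to these, IFIT5 and BST2 are shown because they carry the same core but did not pass the test, the 3 IFITM genes because they went down or did not pass the test, and STAT2 because it encodes a subunit of the factor that reads the element. IFIT5 lies at chr10:91174185-91174324 on the plus strand, BST2 at chr19:17516458-17516597 on the minus strand, IFITM1 at chr11:313851-313990 on the plus strand, IFITM2 at chr11:307967-308106 on the plus strand, IFITM3 at chr11:320915-321054 on the minus strand and STAT2 at chr12:56754038-56754177 on the minus strand.
IFIT5: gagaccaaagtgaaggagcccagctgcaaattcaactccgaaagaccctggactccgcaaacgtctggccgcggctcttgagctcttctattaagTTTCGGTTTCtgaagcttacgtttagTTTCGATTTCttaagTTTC
BST2: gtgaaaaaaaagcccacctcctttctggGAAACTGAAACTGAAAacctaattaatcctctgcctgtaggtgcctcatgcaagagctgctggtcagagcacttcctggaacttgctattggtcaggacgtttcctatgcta
IFITM1: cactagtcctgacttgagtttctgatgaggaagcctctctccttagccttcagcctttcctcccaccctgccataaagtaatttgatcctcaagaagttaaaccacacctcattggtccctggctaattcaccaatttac
IFITM2: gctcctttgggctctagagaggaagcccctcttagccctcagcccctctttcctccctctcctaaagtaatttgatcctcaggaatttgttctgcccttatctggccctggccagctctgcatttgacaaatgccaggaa
IFITM3: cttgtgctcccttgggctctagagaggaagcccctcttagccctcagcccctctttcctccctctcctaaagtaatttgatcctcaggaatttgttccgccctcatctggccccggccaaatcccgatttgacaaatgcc
STAT2: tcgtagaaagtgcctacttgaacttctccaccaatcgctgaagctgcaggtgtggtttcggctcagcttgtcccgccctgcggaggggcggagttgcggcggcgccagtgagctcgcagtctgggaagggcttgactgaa

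The 140 bases before IFITM2 and IFITM3 were identical at 126 of 135 aligned positions (93.3%), while IFITM1 shared 77.8% with IFITM2 and 80% with IFITM3. IFITM1 and IFITM3 had their ISRE cores just after the start site, beginning at base 10 in IFITM1 and at bases 3 and 20 in IFITM3, counted from the start site as base 1. IFITM2 had no match in its window. By outcome, the core was present in 13 of the 21 members that rose, in 2 of the 5 that fell and in 6 of the 13 that did not pass the test. Among all genes tested the core was present in 3.8% of those that rose, 2.49% of those that fell and 2.73% of those that did not pass. The GAS letters were present in 2 of the 21 members that rose, in 1 of the 5 that fell and in 6 of the 13 that did not pass. Over all genes tested these shares were 6.17%, 6.01% and 6.81%. The median number of CpG was 7, 2 and 6 in these classes of members, against 24 in each class of all genes tested. Differences between the classes were not tested. A match or its absence describes these letters in this window only.

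Normalized counts are given after TMM scaling to the mean library total. Differences were tested in edgeR by quasi-likelihood, and p-values were adjusted by the Benjamini-Hochberg method over the 13322 genes that its filter on low counts kept. Of the 40 members 39 were tested. CMPK2, a mitochondrial nucleotide kinase, was left out by the filter, with 5, 6 and 11 reads in vehicle replicates 1, 2 and 3 and 18, 3 and 21 in guadecitabine replicates 1, 2 and 3. At an adjusted p of 0.05, 21 of the 39 members were higher after guadecitabine, while 19.3% of all tested genes were. Another 5 members were lower, against 18.4% of all tested genes, and 13 did not pass. In either direction 37.7% of all genes were called. Without guadecitabine replicate 3 the calls over all genes dropped from 5022 to 3335 (1706 higher, 1629 lower), and those of the members came to 19 higher and 4 lower. The median log2 fold change of the members was 0.57, against 0.02 for all genes tested, and 28 of the 39 had a positive value. Since the members were chosen with earlier results of these data known, these values are no independent test of the set. At least 2-fold higher were 12 members, against 6.65% of all genes, and 1 member, RSAD2, was at least 4-fold higher, against 3.32%. At least 2-fold lower was 1 member, TRIM22, against 5.61%. The groups did not overlap in 22 members with higher values after guadecitabine (26.6% of all genes) and in 6 with lower values (25% of all genes). For a single gene such a separation gives p = 0.1 in a two-sided exact permutation test, which is the smallest p that 3 against 3 libraries allow. In RNA from whole cultures, a larger amount in every cell and a larger share of expressing cells cannot be told apart.

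**Figure D1:**
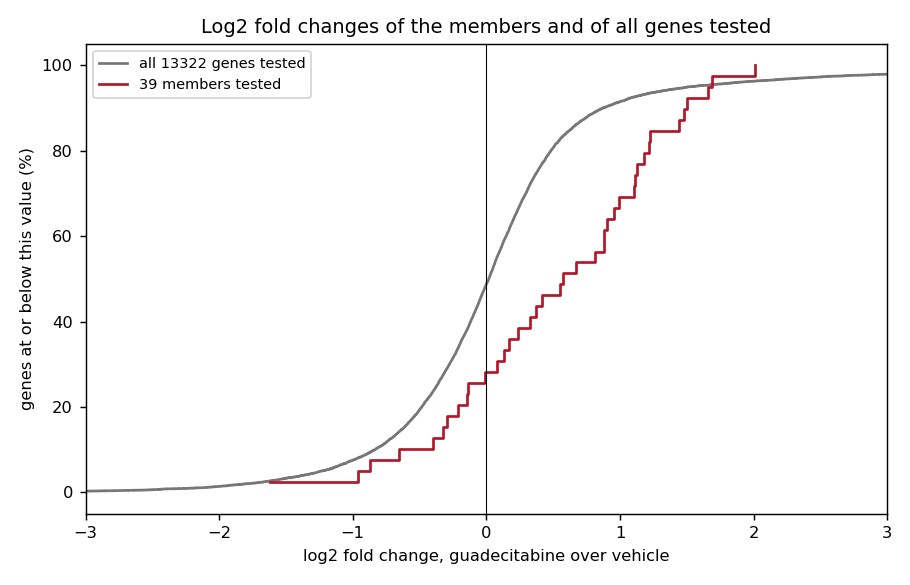
Cumulative share of genes (y axis, percent) at or below each log2 fold change of guadecitabine over vehicle (x axis), for the 39 tested members and all 13322 genes tested. The curve of the members lies to the right of that of all genes over most of the range, with medians of 0.57 and 0.02.

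The IFIT genes encode proteins with tetratricopeptide repeats that bind viral RNA and block its translation, and lie side by side on chromosome 10 (hg19), from 91061706 for IFIT2 to 91180759 for IFIT5. Of the 4, 3 rose, beside 19.3% of all genes tested. IFIT3, the scaffold of the IFIT complex, had 913, 962 and 864 normalized counts in vehicle replicates 1, 2 and 3 and 3399, 1970 and 3235 after guadecitabine, or 1.66 as log2 fold change (standard error 0.192, adjusted p = 0.0002, edgeR). IFIT2 had 1244, 1537 and 1232 normalized counts in vehicle and 3338, 2570 and 2730 after guadecitabine, with a log2 fold change of 1.11 and a standard error of 0.139 (adjusted p = 0.000322, edgeR). IFIT1, which recognizes the cap of foreign RNA, had 1191, 1192 and 1267 in vehicle and 2610, 2306 and 2167 after guadecitabine (log2 fold change 0.96, standard error 0.108, adjusted p = 0.000175, edgeR). In each of these genes all guadecitabine libraries lay above all vehicle libraries. IFIT5 did not pass the test. It had 840, 868 and 882 normalized counts in vehicle and 1018, 619 and 697 after guadecitabine, so that replicate 1 lay above and replicates 2 and 3 below the vehicle libraries (log2 fold change -0.14, standard error 0.172, adjusted p = 0.55, edgeR). Without guadecitabine replicate 1 the value of IFIT5 was -0.39 (adjusted p = 0.0162, edgeR), and without guadecitabine replicate 2 it was -0.0060 (adjusted p = 0.98, edgeR).

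The OAS enzymes make 2′-5′-oligoadenylate when they bind double-stranded RNA, which activates the nuclease RNase L, and OASL is a related protein without this activity that supports RNA sensing by RIG-I. OASL moved the most, from 898, 890 and 650 normalized counts in vehicle to 1575, 1919 and 2039 after guadecitabine (log2 fold change 1.18, standard error 0.156, adjusted p = 0.000434, edgeR). OAS3 went from 933, 835 and 967 to 1419, 1368 and 1564 (log2 fold change 0.67, standard error 0.108, adjusted p = 0.00139, edgeR), and OAS2 from 429, 342 and 430 to 610, 531 and 612 (log2 fold change 0.55, standard error 0.126, adjusted p = 0.00865, edgeR). The libraries of both groups were apart in these 3 genes. OAS1 had 60, 95 and 144 normalized counts in vehicle and 107, 132 and 138 after guadecitabine. Here vehicle replicate 3 was the highest of all 6 libraries, and OAS1 did not pass, at 0.32 (log2 fold change, standard error 0.301, adjusted p = 0.43, edgeR). Without vehicle replicate 3 it was 0.69 (adjusted p = 0.0412, edgeR), and without vehicle replicate 1 it was 0.068 (adjusted p = 0.872, edgeR).

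The IFITM genes encode small membrane proteins that hinder the fusion of viruses with cell membranes, and lie in a row on chromosome 11 (hg19), from 308107 to 320914. Of the 3, 2 fell, beside 18.4% of all genes tested. IFITM1 fell from 1390, 1475 and 1368 normalized counts in vehicle to 670, 763 and 746 after guadecitabine (log2 fold change -0.96, standard error 0.103, adjusted p = 0.00013, edgeR), or 1.95-fold. IFITM2 fell from 2537, 2806 and 3220 to 1414, 1535 and 1741 (log2 fold change -0.87, standard error 0.127, adjusted p = 0.000792, edgeR), or 1.83-fold. IFITM3 had 9546, 10182 and 9233 in vehicle and 6893, 8792 and 7985 after guadecitabine. All 3 guadecitabine libraries of IFITM3 were below the vehicle libraries, yet at -0.29 (log2 fold change, standard error 0.112) the gene missed the threshold (adjusted p = 0.0685, edgeR). Its adjusted p was 0.036 without guadecitabine replicate 2 in the edgeR test and 0.0457 with DESeq2, and it lay between 0.0646 and 0.222 when any other library was left out (edgeR). The transcripts resemble each other. Of all stretches of 50 bases in IFITM1, 15.8% also occurred in IFITM3 and 8.1% in IFITM2, in IFITM2 6.9% occurred in IFITM3 and 6.8% in IFITM1, and in IFITM3 17.4% occurred in IFITM1 and 9.1% in IFITM2, so that the split of reads among them is uncertain. With all other annotated genes included, the shared stretches came to 55.1% in IFITM1, 13.7% in IFITM2 and 20.8% in IFITM3, and in IFITM1 50.7% were shared with 1 unnamed annotated gene. Genes annotated over the same place were not set aside in this count, so these shares do not measure ambiguous mapping.

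PARP9 and PARP12 belong to the family of ADP-ribosyltransferases, and DTX3L is the ubiquitin ligase with which PARP9 forms a complex. PARP12 had the smallest relative error of the rising genes, with 1233, 1159 and 1264 normalized counts in vehicle and 3188, 3295 and 3430 after guadecitabine (log2 fold change 1.44, standard error 0.0978, adjusted p = 9.38e-06, edgeR). PARP9 had 203, 251 and 224 in vehicle and 229, 173 and 178 after guadecitabine, with overlapping groups (log2 fold change -0.21, standard error 0.162, adjusted p = 0.329, edgeR). PARP9 and DTX3L are transcribed away from each other head to head on chromosome 3 and overlap by 339 bases. DTX3L had 647, 504 and 576 in vehicle and 798, 763 and 741 after guadecitabine, or 0.42 as log2 fold change (standard error 0.117, adjusted p = 0.0216, edgeR). The call of DTX3L was lost without vehicle replicate 2 (adjusted p = 0.102, edgeR) and without guadecitabine replicate 3 (adjusted p = 0.0608, edgeR), at log2 fold changes of 0.33 and 0.44. Counting by strand is not given in the sources used here, and 2.9% of the stretches of 50 bases of PARP9 also occurred in DTX3L.

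SAMD9 and SAMD9L, neighbours on chromosome 7, encode large cytoplasmic proteins that restrict poxviruses and growth. Both rose, with the widest spread among the rising genes. SAMD9 had 364, 452 and 462 normalized counts in vehicle and 1789, 786 and 959 after guadecitabine (log2 fold change 1.48, standard error 0.275, adjusted p = 0.00294, edgeR). SAMD9L had 301, 299 and 327 in vehicle and 959, 466 and 563 after guadecitabine (log2 fold change 1.12, standard error 0.236, adjusted p = 0.00566, edgeR). Guadecitabine replicate 1 was far above the other guadecitabine libraries in both genes. Without it, the log2 fold changes were 1.04 for SAMD9 and 0.74 for SAMD9L, with adjusted p of 0.000923 and 0.00203 (edgeR).

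HERC5 and HERC6, a further neighbouring pair, encode HECT ubiquitin ligases, and human HERC5 attaches ISG15 to newly made proteins. HERC5 had 577, 633 and 587 normalized counts in vehicle and 1389, 895 and 1001 after guadecitabine (log2 fold change 0.88, standard error 0.161, adjusted p = 0.00271, edgeR). HERC6 had 394, 334 and 382 in vehicle and 695, 531 and 711 after guadecitabine (log2 fold change 0.81, standard error 0.138, adjusted p = 0.00178, edgeR). In both genes all guadecitabine libraries lay above all vehicle libraries.

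**Figure D2:**
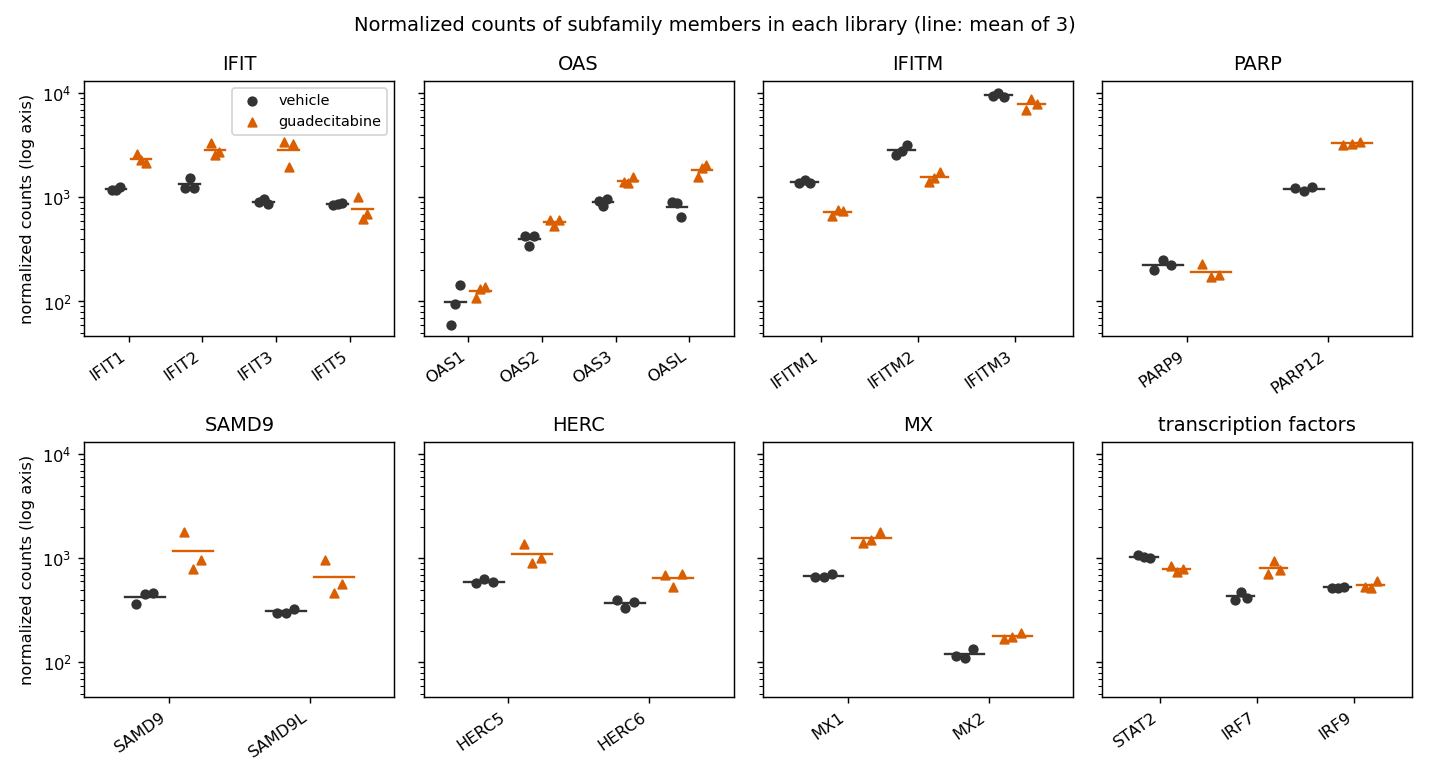
Normalized counts (y axis, log scale) of each member of the IFIT, OAS, IFITM, PARP, SAMD9, HERC and MX subfamilies and of the 3 transcription factors in each library, with circles for the 3 vehicle and triangles for the 3 guadecitabine libraries in order of replicate number and a line at each mean. The triangles lie above the circles in most panels, below them in IFITM1, IFITM2, IFITM3 and STAT2, and among them in IFIT5, OAS1, PARP9 and IRF9.

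ISG15 is a ubiquitin-like protein that is joined to other proteins by the activating enzyme UBA7, the conjugating enzyme UBE2L6 and HERC5, and removed by USP18, which also dampens the interferon receptor. ISG15 rose from 5028, 5362 and 4164 normalized counts in vehicle to 10351, 17002 and 13797 after guadecitabine (log2 fold change 1.50, standard error 0.180, adjusted p = 0.000246, edgeR), or 2.83-fold. UBE2L6 had 1919, 2065 and 1894 in vehicle and 1751, 1622 and 1962 after guadecitabine, and did not pass, at -0.14 (log2 fold change, standard error 0.108, adjusted p = 0.347, edgeR). UBA7, no member but part of the same cascade, fell from 971, 882 and 1135 reads to 267, 144 and 246, or -1.87 as log2 fold change (standard error 0.129, adjusted p = 1e-05, edgeR). The modifier and its ligase were therefore higher, while the activating enzyme was lower. USP18 had 40, 63.4 and 99.6 normalized counts in vehicle and 142, 99.7 and 131 after guadecitabine. The groups of USP18 barely separated, at 99.6 and 99.7, and the log2 fold change was 0.88 (standard error 0.321, adjusted p = 0.0577, edgeR). Without vehicle replicate 3 USP18 was at 1.29 with an adjusted p of 0.00259 (edgeR), and in the other fits without 1 library it lay between 0.62 and 1.01 with adjusted p of 0.0562 to 0.161 (edgeR). In USP18, 16.3% of the stretches of 50 bases also occurred in USP41.

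MX1 and MX2 encode dynamin-like GTPases that trap viral ribonucleoproteins, in the cytoplasm and at nuclear pores, and are neighbours on chromosome 21. MX1 rose from 659, 658 and 713 normalized counts in vehicle to 1405, 1510 and 1797 after guadecitabine (log2 fold change 1.21, standard error 0.121, adjusted p = 8.15e-05, edgeR). MX2 went from 114, 111 and 135 to 168, 175 and 194 (log2 fold change 0.57, standard error 0.162, adjusted p = 0.0218, edgeR). The call of MX2 was lost when vehicle replicate 1, vehicle replicate 2 or guadecitabine replicate 3 was left out, with adjusted p of 0.0814, 0.0813 and 0.0861 (edgeR). Without vehicle replicate 3 MX2 was at 0.67 (adjusted p = 0.0116, edgeR). The log2 fold change of MX2 in the 3 fits without a call lay between 0.50 and 0.54.

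In the IFI group, 2 of 5 genes rose, beside 19.3% of all genes tested. IFI44, a cytoplasmic protein with antiproliferative activity, went from 481, 562 and 507 normalized counts to 1327, 1142 and 1139 (log2 fold change 1.22, standard error 0.115, adjusted p = 6.09e-05, edgeR). IFI6, a mitochondrial and endoplasmic reticulum protein that limits apoptosis and flavivirus replication, went from 276, 286 and 266 to 474, 694 and 651 (log2 fold change 1.13, standard error 0.152, adjusted p = 0.000481, edgeR). IFI27, its relative, was already at 2417, 2759 and 1807 in vehicle and had 2244, 3910 and 2901 after guadecitabine, with overlapping groups (log2 fold change 0.37, standard error 0.213, adjusted p = 0.201, edgeR). IFI35, which binds NMI, had 1365, 1599 and 1135 in vehicle and 1189, 1950 and 1489 after guadecitabine (log2 fold change 0.17, standard error 0.190, adjusted p = 0.512, edgeR), and was at -0.03 without guadecitabine replicate 2. IFI44L, which ends 3646 bases before IFI44 on chromosome 1, stayed near the limit of detection, with 13, 15 and 45 reads in vehicle and 33, 7 and 27 after guadecitabine (log2 fold change 0.13, standard error 0.567, adjusted p = 0.877, edgeR). The neighbours thus gave different calls. The sign of IFI44L turned, to between -0.13 and -0.0011, when vehicle replicate 1, vehicle replicate 2, guadecitabine replicate 1 or guadecitabine replicate 3 was left out, whereas it was 0.77 without vehicle replicate 3 (adjusted p = 0.13, edgeR). A difference was not detectable at this depth.

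Among the transcription factors, IRF7, which amplifies the production of interferon, was higher, with 399, 476 and 416 normalized counts in vehicle and 708, 946 and 771 after guadecitabine (log2 fold change 0.90, standard error 0.136, adjusted p = 0.000895, edgeR). STAT2 was lower, with 1076, 1035 and 1010 in vehicle and 845, 737 and 783 after guadecitabine (log2 fold change -0.40, standard error 0.101, adjusted p = 0.0138, edgeR), or 1.32-fold. Its call was lost without vehicle replicate 1 (adjusted p = 0.0697, edgeR), without vehicle replicate 2 (adjusted p = 0.0547, edgeR) and without guadecitabine replicate 3 (adjusted p = 0.0582, edgeR), with log2 fold changes of -0.37, -0.40 and -0.40. IRF9 did not pass the test, with 523, 524 and 532 in vehicle and 533, 525 and 612 after guadecitabine (log2 fold change 0.08, standard error 0.105, adjusted p = 0.569, edgeR). Of the stretches of 50 bases in the IRF9 transcript, 87.5% also occurred in transcripts of another annotated gene, and for XAF1 this was 73.9%. Stretches were matched on either strand, and genes annotated over the same place were not set aside. These shares therefore do not say how many reads could map to more than 1 place.

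Among the other effectors RSAD2 (viperin), a radical SAM enzyme that makes a chain-terminating nucleotide, had the largest fold change of the members that rose. It went from 89.5, 65.5 and 94.2 normalized counts in vehicle to 409, 275 and 319 after guadecitabine, or 2.01 as log2 fold change (standard error 0.203, adjusted p = 8.88e-05, edgeR), or 4.03-fold. Without vehicle replicate 3 it was at 2.12. ISG20, an exonuclease of single-stranded RNA, went from 244, 290 and 204 to 610, 942 and 833 (log2 fold change 1.69, standard error 0.188, adjusted p = 0.000159, edgeR). DDX60, a helicase linked to RIG-I signalling, went from 489, 582 and 497 to 1339, 808 and 954 (log2 fold change 0.99, standard error 0.181, adjusted p = 0.00259, edgeR). The groups of these 3 genes did not overlap.

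LGALS3BP and TRIM22 went the other way. LGALS3BP, a secreted glycoprotein that binds galectins, fell from 14170, 14036 and 13325 normalized counts to 7588, 10225 and 8643 (log2 fold change -0.65, standard error 0.120, adjusted p = 0.00275, edgeR), or 1.57-fold. TRIM22, a ubiquitin ligase of the tripartite motif family, fell from 72.4, 90.8 and 107 to 35.6, 38.7 and 15.1 (log2 fold change -1.62, standard error 0.387, adjusted p = 0.0104, edgeR), or 3.07-fold. TRIM22 rests on 15 to 44 reads per guadecitabine library. Without vehicle replicate 3 its log2 fold change was -1.49 with an adjusted p of 0.00514 (edgeR).

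The remaining 3 effectors did not pass the test. BST2 (tetherin), which holds budding viruses at the cell surface, had 6335, 6328 and 4767 normalized counts in vehicle and 4135, 5483 and 4338 after guadecitabine (log2 fold change -0.32, standard error 0.150, adjusted p = 0.123, edgeR). Without vehicle replicate 3 or without guadecitabine replicate 2 the value of BST2 was -0.45, with adjusted p of 0.0233 and 0.0452 (edgeR). In the other fits without 1 library it lay between -0.28 and -0.24 and did not pass. XAF1, a proapoptotic binding partner of XIAP, had 84.2 to 97.1 in vehicle and 81.4 to 139 after guadecitabine (log2 fold change 0.23, standard error 0.246, adjusted p = 0.489, edgeR), and was at -0.06 without guadecitabine replicate 1. EPSTI1 had 63.4 to 86.5 and 65.1 to 78.5 normalized counts (log2 fold change -0.01, standard error 0.243, adjusted p = 0.984, edgeR), and its sign turned, to 0.13 and 0.06, without vehicle replicate 3 and without guadecitabine replicate 2.

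**Figure D3:**
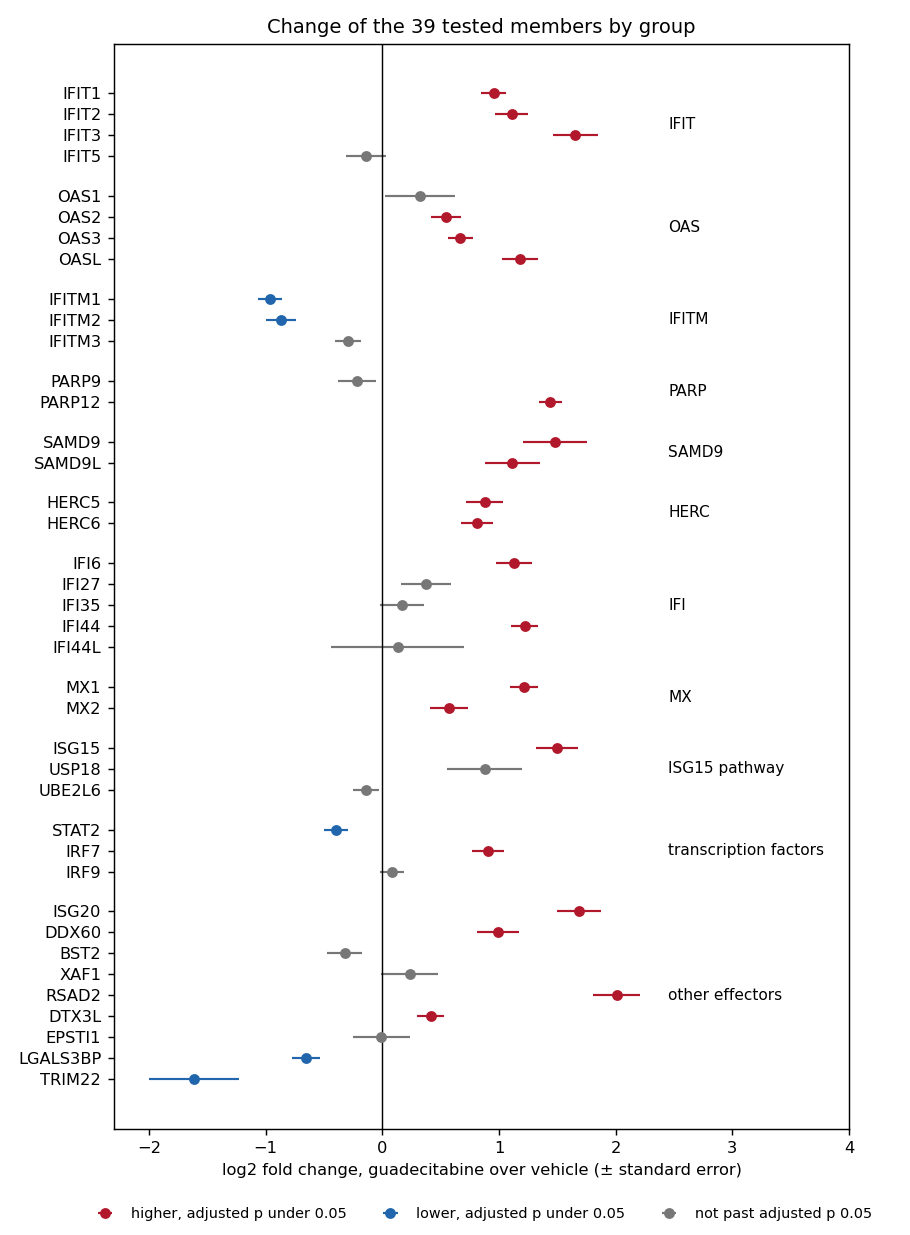
Log2 fold change of guadecitabine over vehicle (x axis, points) with its standard error (bars) for the 39 tested members, arranged by subfamily or role and coloured by the edgeR call. RSAD2 lies farthest to the right at 2.01 and TRIM22 farthest to the left at -1.62.

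For a comparison of levels between members, normalized counts are given as reads per kb of counted exon. In vehicle the members spanned from 3.56 ± 2.04 reads per kb (SD, n = 3) in IFI44L to 14452 ± 723 in IFITM3. ISG15 came next at 7284 ± 929, followed by LGALS3BP at 6125 ± 201, BST2 at 5702 ± 887, IFI27 at 3979 ± 824 and IFITM2 at 3910 ± 471 (SD, n = 3). LGALS3BP and BST2, and IFI27 and IFITM2, differed by less than their spread. These 6 genes made up 81.9% ± 0.55 of the reads per kb summed over the 40 members. MDA-MB-231 cells that received vehicle thus already expressed a part of the effectors well above the other members. Levels were ranked among the 40 members only, not against all genes.

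After guadecitabine ISG15 was the most abundant member at 20596 ± 4994 reads per kb (SD, n = 3), and IFITM3 was the next at 11811 ± 1427. The share of ISG15 in the summed level was 14.8%, 14.9% and 13.3% in vehicle replicates 1, 2 and 3 and 29.9%, 36.4% and 33.7% after guadecitabine. The share of the 3 IFITM genes was 38.7%, 39.2% and 42.9% in vehicle and 25.3%, 23.3% and 25% after guadecitabine. Neither share overlapped between the groups. Both are parts of the same total, so a larger share of ISG15 by itself makes the share of the IFITM genes smaller. IFIT3 moved from rank 12 to rank 8 of the 40 members, IFITM1 from rank 7 to rank 10 and ISG20 from rank 23 to rank 16. The summed level itself was 50962, 53919 and 46945 reads per kb in vehicle and 52073, 70238 and 61563 after guadecitabine, so that the groups overlapped. Without the 3 IFITM genes, none of which rose, the sum was 31258, 32777 and 26805 in vehicle. After guadecitabine it was 38883, 53910 and 46184, and these groups did not overlap.

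**Figure D4:**
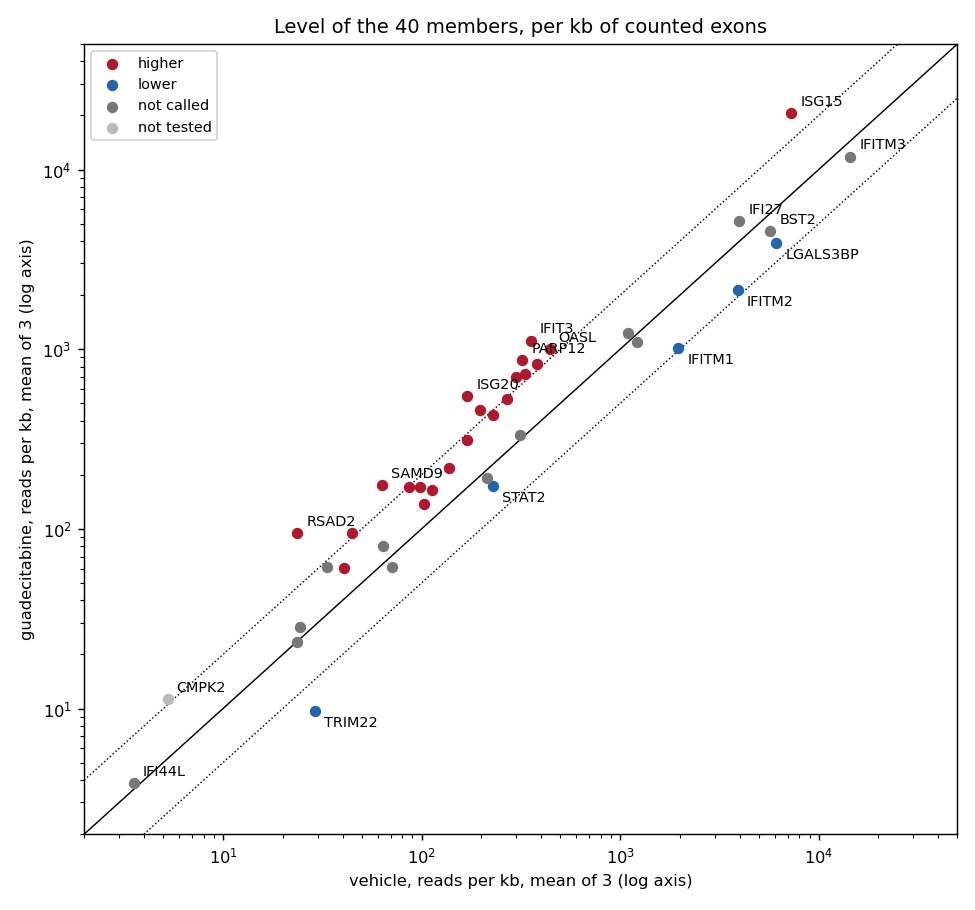
Mean reads per kb of the 40 members in the vehicle (x axis) and guadecitabine libraries (y axis), both on a log scale, with the line of equal levels and dotted lines at a 2-fold difference, coloured by the edgeR call. ISG15 is the member at the top, at 20596 reads per kb after guadecitabine, and IFITM1, IFITM2 and LGALS3BP lie below the line among the abundant members.

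The guadecitabine libraries differed from each other in a way that followed exon length. Of the 20 tested members with over 3000 bp of counted exons, 17 were higher in guadecitabine replicate 1 than in replicate 2, compared with 3 of the 15 members with at most 2000 bp. The log2 ratio of replicate 1 to replicate 2 was 1.19 for SAMD9 and 1.04 for SAMD9L, the longest of the rising genes, and -0.72 for ISG15 and -0.80 for IFI27, the shortest members. Across the 39 members, which are all read from the same libraries, the ratio correlated with exon length with a Spearman's rho of 0.75, against 0.33 across all 13322 genes tested. Between vehicle replicates 1 and 2 the same values were 0.24 and 0.12. Of the 20 long members 13 were called higher and 2 lower, and of the 15 short ones 6 higher and 2 lower. Of all genes tested, of any length, 19.3% were higher and 18.4% lower, and shares by length were not computed. The part of exon length in the calls and in the values of single guadecitabine libraries was not tested.

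**Figure D5:**
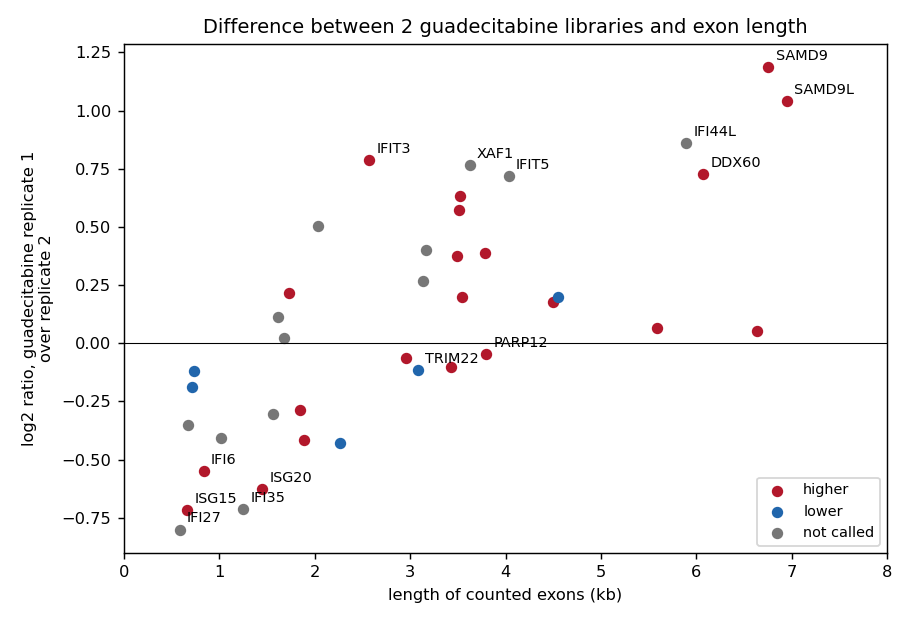
Log2 ratio of normalized counts (with 1 added) in guadecitabine replicate 1 to replicate 2 (y axis) against counted exon length in kb (x axis) for the 39 tested members, coloured by the edgeR call. Members with short exons such as ISG15 lie below 0, and SAMD9 and SAMD9L, the longest, lie at the top.

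The same cells were examined for other genes of the interferon pathway, from lists made with earlier results known. Of the 13 names of interferon ligands, IFNL1 and IFNW1 were among the transcripts analysed. IFNL1, a type III interferon, had 0, 1 and 7 reads in vehicle replicates 1, 2 and 3 and 26, 19 and 27 after guadecitabine (log2 fold change 3.56, standard error 0.901, adjusted p = 0.0134, edgeR). IFNL1 passed the filter on low counts only through the guadecitabine libraries, where it was high, so its adjusted p is no independent support for a rise. The 7 reads of vehicle replicate 3 came from the library that stood apart, and IFNW1 was read there alone, with 11 reads. Of 15 tested receptors, kinases and transcription factors of the pathway 6 were higher and 1 lower, with a median log2 fold change of 0.39 and none beyond 0.76 in size, where 19.3% of all genes tested were higher and 18.4% lower. Of 8 negative regulators 1 was higher and 3 were lower, beside the same shares of all genes, with a median of 0.07.

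Of 41 further interferon-stimulated genes 14 were higher and 4 lower, against 19.3% and 18.4% of all genes tested, with a median log2 fold change of 0.13. The list of members had a larger share of higher genes by count, with 21 of 39, but a difference between the lists was not tested. The 3 highest were DDX58 (RIG-I), at 1.69 ± 0.167 (log2 fold change and standard error), IFIH1 (MDA5), at 1.58 ± 0.151, both sensors of double-stranded RNA, and the lysosomal thiol reductase IFI30, at 1.41 ± 0.0993. The 3 lowest were UBA7, given above, the guanylate-binding protein GBP2, at -0.82 ± 0.169, and the large ubiquitin ligase RNF213, at -0.76 ± 0.164. Both directions were therefore also present outside the 40 members.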

How the data were processed

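MDA-MB-231 libraries (3 vehicle, 3 guadecitabine) were grouped by their titles. The authors aligned reads to hg19 with STAR (version 2.3.1z in the submitters' processing notes) and counted reads in exons with iRNA-seq, and the deposited counts, 1 RefSeq transcript per gene symbol, are not normalized. The 6 deposited columns of regularized log values were not used, and neither were the authors' fold changes and p-values from DESeq2. Multi-mapping and strand settings are not given in the sources used here.

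The test on counts used edgeR 4.0.16 under R 4.3.3 (TMM, filterByExpr with a minimum count of 10, quasi-likelihood test, Benjamini-Hochberg adjustment over 13322 genes, threshold 0.05). The fit was tested on simulated data. Standard errors were derived from the F statistic. Totals ranged from 8792127 to 22277442 counts, and low counts carry counting error as well. No pair of libraries was identical. Alternatives were DESeq2 1.42.0, its size factors, library totals only, other filters, a replicate block and leaving out each library.

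Members and lists were chosen with earlier results of these data known. All 40 members are named. Of the pathway lists, the text names ligands, receptors and kinases that passed with a log2 fold change of at least 1 in size, and the 3 highest and 3 lowest called genes of the other interferon-stimulated genes. Windows at start sites were read from GRCh37, the assembly of hg19, with Python 3.11.15. Deposited starts were read as counted from 0. Stretches of 50 bases were counted in GENCODE release 44 transcripts on either strand, with genes annotated over the same place included. Some listed genes are not reported here.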

Additional observations from a re-analysis of the deposited data

How the results depend on the processing

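Among the members, calls came to 19 to 23 higher and 4 to 7 lower when each library was left out, and 21 or 22 higher and 5 or 6 lower under each of the other alternatives. Over all genes these other alternatives gave 2332 to 2757 higher and 2040 to 2615 lower. Of 467 values of single members under an alternative, 439 kept direction and side of the threshold, 8 lost a call, 10 gained one and 10 changed sign, all of the last in genes that were not called. These were IFI35 at -0.027 without guadecitabine replicate 2, XAF1 at -0.059 without guadecitabine replicate 1, IFI44L at -0.13, -0.026, -0.0011 and -0.018 without vehicle replicates 1 and 2 and guadecitabine replicates 1 and 3, and EPSTI1 at 0.020 with library totals only, 0.015 with no filter, 0.13 without vehicle replicate 3 and 0.064 without guadecitabine replicate 2. Over the fits without 1 library, values ranged from -0.027 to 0.33 in IFI35, -0.059 to 0.36 in XAF1, -0.13 to 0.77 in IFI44L and -0.100 to 0.13 in EPSTI1. Over all genes, leaving out each library gave 3335 to 5577 calls, 1706 to 3002 higher and 1629 to 2575 lower, the lowest without guadecitabine replicate 3, and the cause was not tested. The labels of same-numbered libraries do not say whether they came from the same experiment. The correlations of their deviations from the group means were -0.04, 0.04 and -0.03. These values cannot decide the question, since the deviations also hold the differences of single libraries described above. With the replicate number as a block 22 members were higher and 5 lower, beside 2424 higher and 2230 lower over all genes. USP18 was gained there at 0.94 (adjusted p = 0.0456, edgeR). USP18 also passed with DESeq2 (adjusted p = 0.0484) and with no filter (adjusted p = 0.0402, edgeR), but not in 5 of the 6 fits without 1 library. With library totals only the median of all genes was 0.05 and that of the members 0.60. Members with few reads, such as IFI44L, CMPK2 and TRIM22, are limited by counting error.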
